A study of Homo sapiens with 6 samples.

Results

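Cadherins are calcium-dependent adhesion proteins that hold neighbouring cells together. The values described here are those of 10 genes: the classical cadherins CDH1, CDH2, CDH3, CDH4, CDH5, CDH6 and CDH11, the membrane-anchored cadherin CDH13, and the catenins CTNNA1 and CTNND1. They were chosen by symbol among the 17039 genes of the expression table, and all 10 were found in it. Because they were selected on this comparison, with the difference of CDH11 already known, their values are given as a description, without p-values. The Entrez Gene identifiers given in the table are 999 for CDH1, 1000 for CDH2, 1001 for CDH3, 1002 for CDH4, 1003 for CDH5, 1004 for CDH6, 1009 for CDH11, 1012 for CDH13, 1495 for CTNNA1 and 1500 for CTNND1.

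The study searched for genes related to breast cancer brain metastasis by sequencing poly(A) RNA of 231-BR and MDA-MB-231 cells, with 3 libraries of either line. MDA-MB-231 is a human triple-negative breast cancer line, and 231-BR is a brain-seeking variant derived from it. Both lines were grown in DMEM with fetal bovine serum and penicillin-streptomycin, and the medium of 231-BR cells also held G418. The 231-BR line came from another laboratory and MDA-MB-231 from a repository, so brain-seeking behaviour, the separate culture of the lines and the G418 cannot be told apart here. In the labels the cell line field counts upward within either line, as 231-BR, 232-BR and 233-BR for the 3 libraries titled 231BR, and the libraries were grouped by their titles. The series calls the samples of each line independent but does not say that they were separate cultures, so the spread between them may be technical.

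Expression was given as FPKM, fragments scaled to transcript length and to the size of the library, which allows levels to be compared between genes. Depth per library is unknown because no counts were used. The summed FPKM was 465020 to 472007 in 231-BR and 486937 to 496420 in MDA-MB-231 libraries. Between libraries of the same line, Pearson's r of log2 values was 0.9966 or more across the 11124 genes with a mean of at least 1 FPKM. Genes are not independent replicates, and most cadherin members lay below that level. For short genes with a single coding transcript, only low products of FPKM and length were binned, 192 to 205 values per library. Among these low products alone, the range from 40 to 60 was the fullest in all 6 libraries, with 46 to 55 values. For the longest annotated coding transcript of CDH11, 6874 bases, a value of 0.01 FPKM gives a product of 68.7, so such values lie near the smallest step of the table. Of the markers of the labelled cells, VIM (2273 to 2566 FPKM), KRT8, KRT18 and CD44 were abundant in every library, PGR did not exceed 0.07 FPKM and ESR1 ranged from 0.74 to 1.08 FPKM. ERBB2 was higher in 231-BR, at 9.61 to 10.23 FPKM against 4.75 to 5.08 FPKM in MDA-MB-231 libraries.

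A classical cadherin spans the membrane once, binds cadherins of the facing cell with its outermost extracellular domain, and binds catenins with its cytoplasmic tail. p120-catenin (CTNND1) and β-catenin (CTNNB1) attach to the tail, and α-catenin (CTNNA1) links β-catenin to actin. The tip of the outermost domain swaps between facing cadherins: type I cadherins such as E-cadherin (CDH1) insert a single tryptophan, and type II cadherins such as CDH11 insert a pair. CDH13 lacks the transmembrane and catenin-binding parts and is held in the membrane by a lipid anchor.

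The reference sequences of this tip show which cadherins belong to which type. Each line below holds the 10 codons that follow the cleavage site of the propeptide in the longest coding transcript of GENCODE release 29 (GRCh38), 30 bases read 5′ to 3′ on the coding strand, with TGG codons (tryptophan) in capitals. They are shown for the members and for 3 further type II cadherins that are described below.
CDH1: gacTGGgttattcctcccatcagctgccca
CDH2: gacTGGgtcatccctccaatcaacttgcca
CDH3: gatTGGgtggttgctccaatatctgtccct
CDH4: gacTGGgtcatcccgcccatcaacgtgccc
CDH5: gatTGGattTGGaaccagatgcacattgat
CDH6: agcTGGatgTGGaatcagttctttctcctg
CDH11: ggcTGGgtcTGGaaccagttcttcgtgata
CDH10: ggtTGGatgTGGaatcaatttttcttactt
CDH12: ggcTGGgtaTGGaatcaattttttgtgctg
CDH18: ggaTGGgtaTGGaatcagttctttgtttta
CDH13: tccattgtggtatctcccattttaattcca
The CDH11 codons lie at chr16:65004681-65004710 on the minus strand, in exon 3, and those of CDH4 at chr20:61773114-61773143 on the plus strand, in exon 4. The 4 type I members each hold 1 TGG codon, at codon 2. The 3 type II members CDH5, CDH6 and CDH11 hold 2, at codons 2 and 4, as do CDH10, CDH12 and CDH18. CDH13 holds none in these codons, which lie at chr16:83125433-83125462 in exon 5. Over all classical cadherins in the table, 5 of 5 type I genes had 1 such codon and 9 of 9 type II genes had 2.

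CDH11 (OB-cadherin) is a type II cadherin known from osteoblasts and mesenchymal cells, and its gene lies at chr16:64943753-65126112 on the minus strand of GRCh38. Its level was 57.43, 55.46 and 55.77 FPKM in the 3 libraries of 231-BR cells and 0, 0.01 and 0.01 FPKM in those of MDA-MB-231 cells. Every 231-BR library was thus high and every MDA-MB-231 library was at or beside 0. The mean in 231-BR was 56.2 ± 1.06 FPKM (SD, n = 3), which placed CDH11 at rank 1475 of 17039 genes in that line. On the scale of log2(FPKM + 0.1) the lines differed by 9.05, a size that depends on the added 0.1, being 5.83 with 1 and 11.79 with 0.01. In these bulk libraries, a smaller share of cells with CDH11 mRNA and less of it per cell cannot be told apart.

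Of the 17039 genes, 31 were at 1 FPKM or more in every 231-BR library and at most 0.01 FPKM in every MDA-MB-231 library. CDH11 had the highest level of the 31, and CDH18 and CDH10, described below, were also among them. Since the difference of CDH11 was already known, its place is a description only. The reverse pattern was held by 10 genes. The 5 genes nearest to CDH11 by Euclidean distance of log2(FPKM + 0.1) over the 6 libraries were MAGEA6 (distance 0.751), PHGDH (1.73), SSX1 (1.93), CHRDL1 (2.02) and CD96 (2.19). Their means were 27.3 to 47.2 FPKM in 231-BR and 0.03 to 0.133 FPKM in MDA-MB-231 cells. PHGDH encodes the first enzyme of serine synthesis from glucose intermediates and CHRDL1 a secreted BMP antagonist, whereas MAGEA6 and SSX1 are cancer-testis genes with near-identical copies whose fragments may be split between them.

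CDH4 (R-cadherin, first described in retina) was the only type I member with a level above 1 FPKM. It gave 26.00, 25.82 and 24.76 FPKM in 231-BR and 23.99, 24.25 and 26.37 FPKM in MDA-MB-231 libraries. The lines overlapped, and the difference of 0.04 on the log2 scale had a standard error of 0.041 and a negative sign (-0.04) after median-of-ratios scaling. CDH4 (chr20:61252426-61940617, plus strand) was therefore present at like levels in both lines, at a mean of 25.5 ± 0.670 and 24.9 ± 1.31 FPKM (SD, n = 3 each).

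The other type I members were at or near 0 in both lines. CDH1 (E-cadherin), the main cadherin of epithelial junctions, was listed at 0, 0.01 and 0.01 FPKM in 231-BR and at 0.01, 0.03 and 0 FPKM in MDA-MB-231 cells. CDH2 (N-cadherin), known from neural and mesenchymal cells, was at 0.08, 0.14 and 0.11 against 0.10, 0.09 and 0.16 FPKM. CDH3 (P-cadherin), found in basal epithelial cells, was at 0.11, 0.10 and 0.08 against 0.07, 0.06 and 0.07 FPKM, so that the lines did not overlap by 0.01 FPKM, the last digit of the table. CDH1 and CDH3 are neighbours on chromosome 16 (chr16:68737225-68835548 and chr16:68636189-68722616, plus strand). At these levels a difference between the lines was not detectable for CDH1 or CDH2.

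Of the type II members besides CDH11, CDH5 (VE-cadherin), the cadherin of endothelial junctions, did not exceed 0.03 FPKM in any library. CDH6 (K-cadherin), known from kidney and neural crest, was listed at 0 in all libraries but 1, MDA-MB-231 replicate 1, at 0.01 FPKM. CDH13 (T-cadherin; chr16:82626803-83800640, plus strand), which binds adiponectin, was the only cadherin member that was lower in 231-BR cells without overlap. It gave 0.12, 0.28 and 0.28 FPKM in 231-BR against 0.51, 0.74 and 0.67 FPKM in MDA-MB-231 libraries. The value of 231-BR replicate 1 was less than that of the other libraries of its line. The difference was -1.21 on the log2(FPKM + 0.1) scale and -0.42 when 1 was added instead of 0.1.

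**Figure D1:**
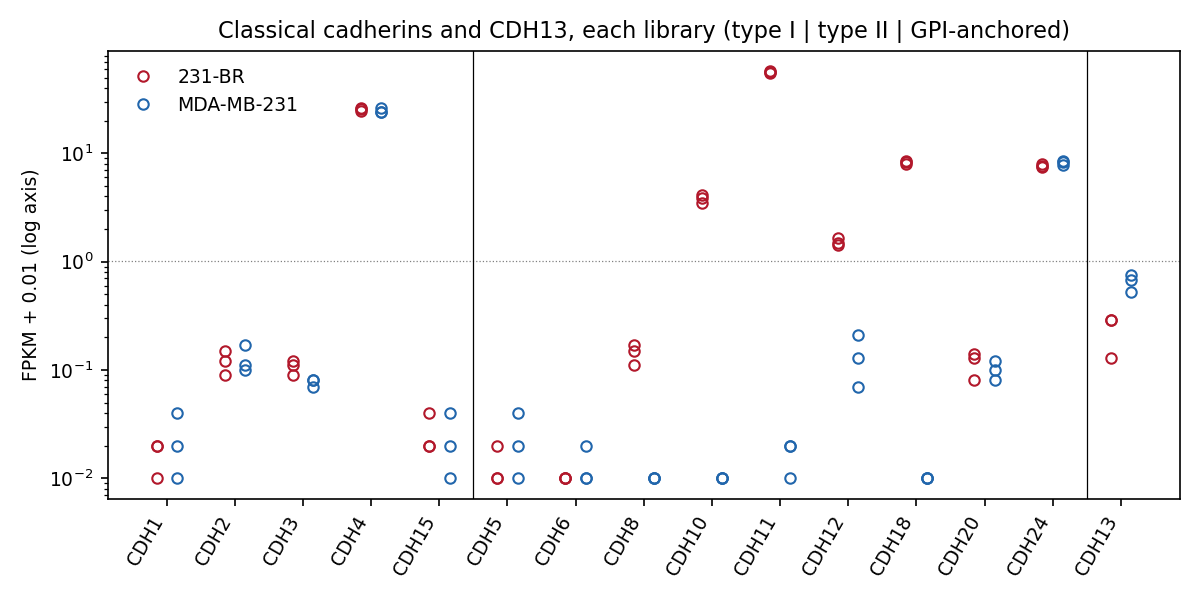
FPKM + 0.01 on a log axis for the 14 classical cadherins in the table and CDH13. Each circle is 1 library, red for 231-BR and blue for MDA-MB-231. CDH4 and CDH24 lie above 1 FPKM (dotted line) in both lines, whereas CDH11, CDH18, CDH10 and CDH12 do so in 231-BR libraries alone.

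The catenin members were abundant in both lines. CTNND1 (p120-catenin; chr11:57753243-57819546, plus strand), which keeps cadherins at the cell surface, gave 41.30, 40.49 and 40.75 FPKM in 231-BR and 27.85, 26.87 and 27.03 FPKM in MDA-MB-231 libraries. All 231-BR libraries were higher, by 1.5-fold between the means. CTNNA1 (αE-catenin; chr5:138610967-138935034, plus strand) gave 138.10, 137.68 and 138.41 FPKM against 165.42, 164.11 and 162.16 FPKM. All 231-BR libraries were lower, with a change of -15.8% in the mean. The log2 differences were 0.58 for CTNND1 and -0.25 for CTNNA1, and with median-of-ratios scaling 0.50 and -0.33.

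A gene was tested when its mean over the 6 libraries was at least 0.1 FPKM, which 6 of the 10 members met. CDH1, CDH3, CDH5 and CDH6 were below that level. Genes were called with a Benjamini-Hochberg adjusted p under 0.05 in limma and a log2 difference over 1 in size, which held for CDH11 (higher) and CDH13 (lower). CDH11 passed the filter only through its 231-BR values. CDH13 no longer met the fold criterion without 231-BR replicate 1 (log2 difference -0.95) or with a pseudocount of 1 (-0.42). Over all 13465 tested genes, 10.9% were called higher and 4.34% lower in 231-BR cells. By the adjusted p alone, 2 members were higher and 2 lower, beside 44.4% and 32.9% of all tested genes. For 5 of the 10 members, 4 of them tested, no 231-BR library lay within the range of the MDA-MB-231 libraries or the reverse, and this held for 78.4% of all tested genes. Since the members were selected on the same values, nothing is read from these counts.

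Other classical cadherins were taken from a fixed list of 11 genes, of which 7 were in the table and 4 could be tested. Of the 4, 3 were called higher and 0 lower (adjusted p alone: 3 and 0), beside the 10.9% and 4.34% of all tested genes. CDH18 and CDH10 passed the filter only through their 231-BR values and could only come out higher, so the count is no support for a direction. All 3 are type II cadherins known mainly from the nervous system, and they lie along the short arm of chromosome 5. CDH18 gave 8.29, 7.95 and 8.41 FPKM in 231-BR cells and was listed at 0 in all MDA-MB-231 libraries. CDH10 gave 4.10, 3.49 and 3.83 FPKM and was likewise listed at 0 in all MDA-MB-231 libraries. CDH12 gave 1.49, 1.40 and 1.64 FPKM against 0.06, 0.20 and 0.12 FPKM, a log2 difference of 2.87 ± 0.21 (SE; adjusted p = 6.4e-07, limma). The fourth, CDH24, also a type II cadherin, was at 7.71 ± 0.247 and 8.19 ± 0.328 FPKM (SD, n = 3 each) and did not pass the test (log2 difference -0.09, adjusted p = 0.13, limma). Among those under the filter, CDH8 was at 0.10 to 0.16 FPKM in 231-BR and listed at 0 in MDA-MB-231 libraries, while CDH15 and CDH20 did not exceed 0.13 FPKM in either line.

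The order of the cadherins differed between the lines. In 231-BR cells CDH11 came first, followed by CDH4, then CDH18 and CDH24, whose libraries overlapped, and then CDH10 and CDH12. In MDA-MB-231 cells CDH4 came first and CDH24 next, and CDH13 followed at 0.640 ± 0.118 FPKM (SD, n = 3). Thus 6 of the 14 classical cadherins reached 1 FPKM in every 231-BR library and 2 did in every MDA-MB-231 library. Of all 17039 genes, 11166 to 11178 reached 1 FPKM in a 231-BR library and 10785 to 10806 in an MDA-MB-231 library. The 14 include CDH11, whose difference was already known, so nothing is read from these counts.

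The summed FPKM of the 14 classical cadherins was 103 ± 1.61 (SD, n = 3) in 231-BR against 33.5 ± 1.37 (SD, n = 3) in MDA-MB-231 cells. Type I cadherins summed to 25.8 ± 0.667 and 25.1 ± 1.32 FPKM, and their libraries overlapped. Type II cadherins summed to 77.7 ± 1.32 and 8.43 ± 0.246 FPKM. CDH11 made up 54.3% of the sum in 231-BR cells, CDH4 24.7%, CDH18 7.94% and CDH24 7.45%. In MDA-MB-231 cells CDH4 made up 74.2% and CDH24 24.5%. The log2 ratio of the sums was 1.63 with CDH11 and 0.50 without it. These sums contain the values that the members were chosen by and are given without a test.

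**Figure D2:**
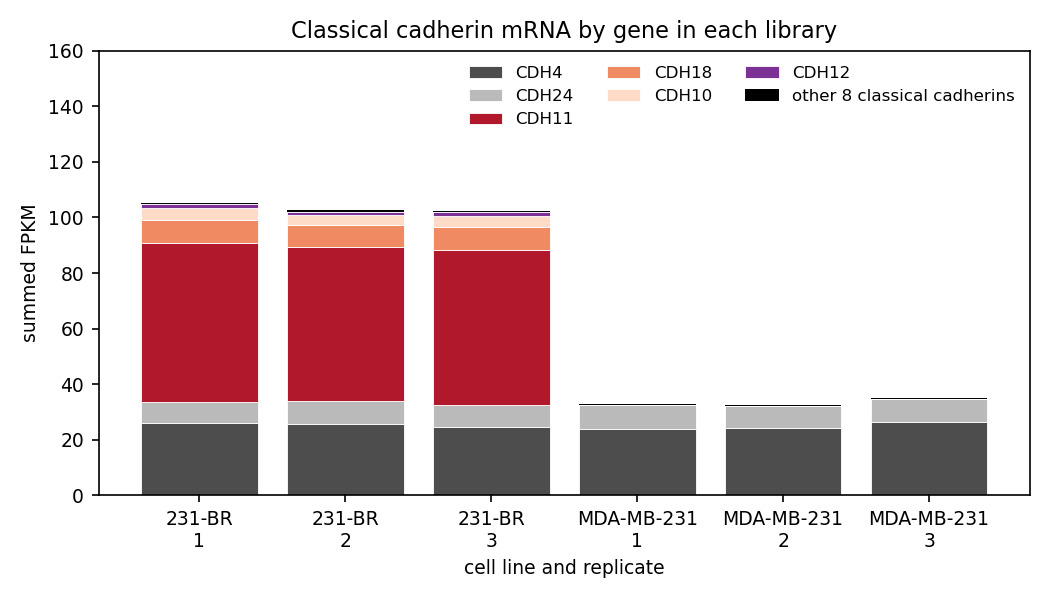
Summed FPKM of the classical cadherins in each library, stacked by gene. The CDH4 and CDH24 segments have like heights in the 6 bars, and the CDH11, CDH18, CDH10 and CDH12 segments are visible in the 3 bars of 231-BR, which reach 102 to 105 FPKM against 32.6 to 35.1 FPKM.

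Catenins and other junction partners formed a list of 34 genes, of which 31 were tested, 18 rose and 9 fell by adjusted p alone (limma), beside 44.4% and 32.9% of all tested genes. The fold criterion was also passed by 2, both higher, beside 10.9% of all tested genes, and the median log2 difference was 0.18 beside 0.08. CTNNB1 (β-catenin), which binds cadherin tails and also acts in Wnt signalling, gave 116.21, 117.14 and 117.51 FPKM in 231-BR against 108.17, 105.70 and 107.74 FPKM in MDA-MB-231 libraries (log2 difference 0.13 ± 0.021, SE; adjusted p = 0.00036, limma). This small difference lies close to the median of 0.08 over all tested genes. Median-of-ratios scaling lowered the differences of CTNND1 and CTNNA1, and the value of CTNNB1 after that scaling is not given here. JUP (γ-catenin), a relative of β-catenin that is also found in desmosomes, was at 0.353 ± 0.0379 against 0.200 ± 0.0854 FPKM (log2 difference 0.63, adjusted p = 0.022, limma). The 2 genes that passed both criteria were the neural catenins CTNNA2 (0.29 to 0.34 FPKM against 0 to 0.03) and CTNND2 (0.34 to 0.47 FPKM, listed at 0 in MDA-MB-231 libraries). Both passed the filter only through their 231-BR values, so they could only come out higher. They are named here after their values were seen, since both stayed under 1 FPKM. Also outside the rule for named genes, the α-catenin relative CTNNAL1 fell from 205 ± 3.68 to 132 ± 3.40 FPKM (log2 difference -0.63, adjusted p = 9.1e-09, limma), and the p120 family member PKP4 fell from 42.3 ± 1.05 to 28.5 ± 0.509 FPKM (-0.57, adjusted p = 5.2e-08, limma). With the fold criterion of a log2 difference over 1, no catenin above 1 FPKM was called in either direction.

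**Figure D3:**
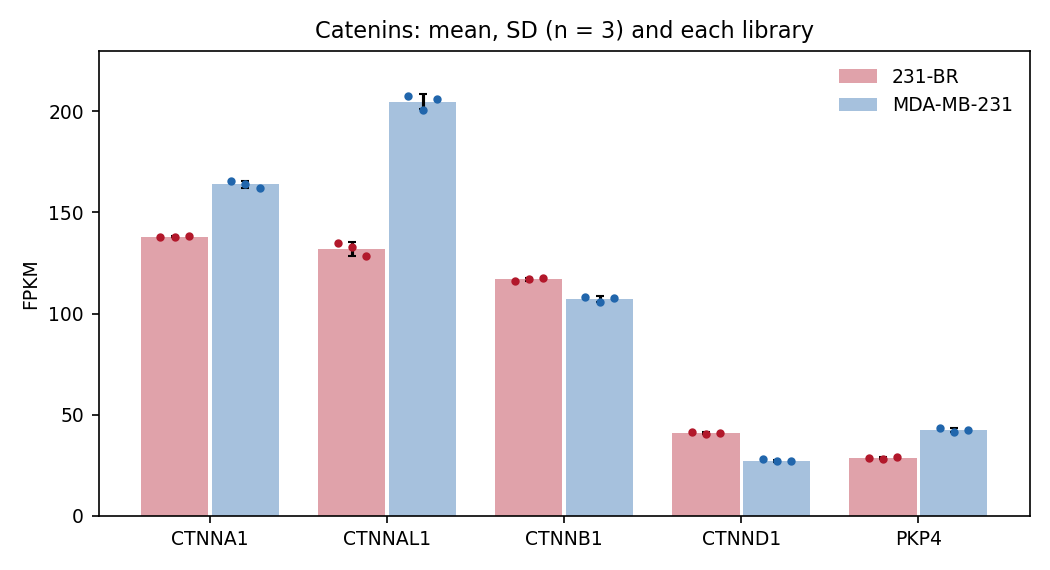
FPKM of the 5 catenins above 1 FPKM. Bars are means, error bars are SDs over 3 libraries and points are libraries. In FPKM without rescaling, CTNND1 and, by a small margin, CTNNB1 are higher in 231-BR (red), and CTNNA1, CTNNAL1 and PKP4 are higher in MDA-MB-231 (blue).

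Classical cadherins are made with a propeptide that must be cut off before the tryptophan tips printed above can bind, and they are later shed and cleaved at the membrane. Of 14 genes for these steps and for O-mannosylation of cadherins, 13 were tested, and by adjusted p alone 6 rose and 5 fell (limma), beside 44.4% and 32.9% of all tested genes. The median log2 difference of the list was 0.06 beside 0.08, and 1 gene was called higher and 1 lower. FURIN, the convertase known to cleave cadherin propeptides, fell from 22.49, 22.77 and 22.48 FPKM in MDA-MB-231 to 6.98, 7.36 and 7.30 FPKM in 231-BR cells (log2 difference -1.63 ± 0.037, SE; adjusted p = 1.6e-10, limma). PCSK5, a convertase of the same family, rose from 0.51, 0.58 and 0.66 to 2.75, 2.59 and 2.54 FPKM (2.0 ± 0.11, SE; adjusted p = 5.6e-08, limma). No other gene of the list passed the fold criterion.

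Non-classical cadherins were listed with 21 genes, 17 of them in the table and 9 tested. By adjusted p alone 5 rose and 3 fell (limma), beside 44.4% and 32.9% of all tested genes, and 2 were called higher, beside 10.9%. The median log2 difference was 0.41 beside 0.08. FAT4, a giant cadherin of the planar polarity system, rose from 1.14 ± 0.0436 to 5.21 ± 0.245 FPKM (log2 difference 2.10 ± 0.072, SE; adjusted p = 3.0e-09, limma). The other, FAT3, was named after its values were seen, at 0.28 to 0.30 against 0.04 to 0.07 FPKM, and it passed the filter only through its 231-BR values.

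Transcription factors that repress CDH1 were read beside CDH1, which stayed at or below 0.03 FPKM. Of 8 listed genes, 6 were in the table and tested, and 3 rose and 1 fell by adjusted p alone (limma), beside 44.4% and 32.9% of all tested genes. The fold criterion was also met by 2 of those that rose and by the 1 that fell, beside 10.9% and 4.34%, and the median log2 difference was 0.22 beside 0.08. SNAI2 (Slug) rose from 9.97 ± 0.263 to 37.9 ± 0.697 FPKM (log2 difference 1.92 ± 0.034, SE; adjusted p = 3.6e-11, limma). SNAI1 (Snail) fell from 5.50 ± 0.445 to 1.62 ± 0.202 FPKM (-1.71 ± 0.098, SE; adjusted p = 1.1e-07, limma). ZEB2 rose from 1.27 ± 0.0503 to 2.70 ± 0.147 FPKM, with a log2 difference of 1.03 close to the threshold (adjusted p = 1.1e-06, limma). That difference was 0.99 without 231-BR replicate 1 and 1.00, just under the threshold, without MDA-MB-231 replicate 3. Outside the rule for named genes, ZEB1 was at 26.7 against 23.2 FPKM (log2 difference 0.20, adjusted p = 0.00081, limma). TCF3, at 26.0 against 26.1 FPKM, and TCF4, at 0.200 against 0.153 FPKM, did not pass the test.

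Over the 5 lists, 12 of the 63 tested genes were called, 10 higher and 2 lower, beside 10.9% and 4.34% of all tested genes. By adjusted p alone 35 of the 63 were higher and 18 lower, beside 44.4% and 32.9%. The median log2 difference was 0.20 beside 0.08 over all tested genes. The lists were written with results of these data known, and their counts are no independent evidence of a direction.

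**Figure D4:**
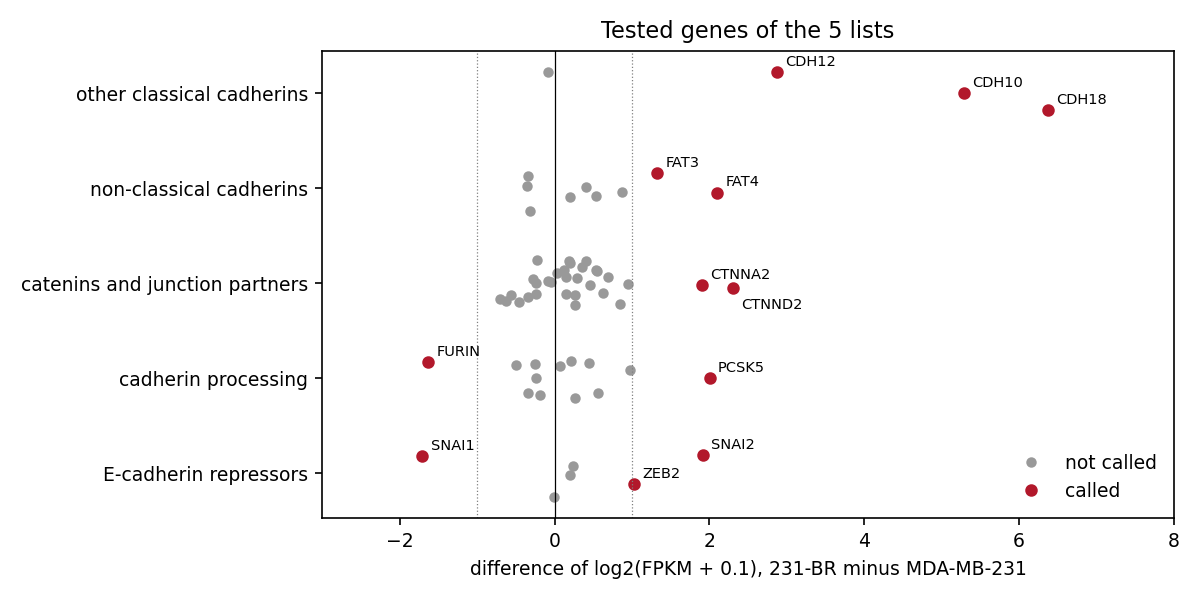
Difference of log2(FPKM + 0.1), 231-BR minus MDA-MB-231, for the 63 tested genes of the 5 lists, 1 point per gene. Called genes are red and named, dotted lines mark the threshold of 1 on either side, and points are spread vertically only for legibility. CDH10, CDH18 and CTNND2 were listed at 0 in MDA-MB-231 libraries, so their position depends on the added 0.1.

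The genes around each member were looked at in chromosome order, with the 10 nearest tested genes on either side. These neighbours spanned chr16:58025566-66934423 for CDH11 and chr5:14704800-33892192 for CDH6, so a neighbour can lie far from its member. Around CDH11 the median log2 difference of the 20 neighbours was 0.24, beside 0.08 over all tested genes. Of them, 1 neighbour was called higher and 0 lower, beside 10.9% and 4.34% of all tested genes. That neighbour was TK2, a mitochondrial thymidine kinase, at 2.93 against 1.35 FPKM. CDH8 (start of the mature chain at chr16:62021191-62021220) lies in the same stretch but was under the filter, so it is not among the 20. It was at 0.10 to 0.16 FPKM in 231-BR and listed at 0 in MDA-MB-231 libraries. Around CDH6 the median of the 20 neighbours was 0.60, and 9 (of 20) were called higher and 0 lower, beside 10.9% and 4.34% of all tested genes. They include CDH18 (chr5:19472951-20575873), CDH12 (chr5:21750673-22853622) and CDH10 (chr5:24487100-24644978), all on the minus strand, and 6 of the 17 neighbours that are not cadherins. The largest difference among these 6 was that of FBXL7, an F-box gene, at 9.30 against 0.0133 FPKM. FBXL7, PRDM9 (0.737 against 0 FPKM), CDH18 and CDH10 passed the filter only through their 231-BR values and could only come out higher. The count of 9 is therefore no support for a direction in this stretch. Around the other 8 members the medians ranged from -0.38 (CDH4) to 0.32 (CTNND1), with 1 to 4 neighbours called higher and 0 or 1 lower. The 2 called higher around CDH5 include CDH11 itself. CDH1 and CDH3 share their neighbours, and the windows of CDH5 and CDH11 overlap.

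**Figure D5:**
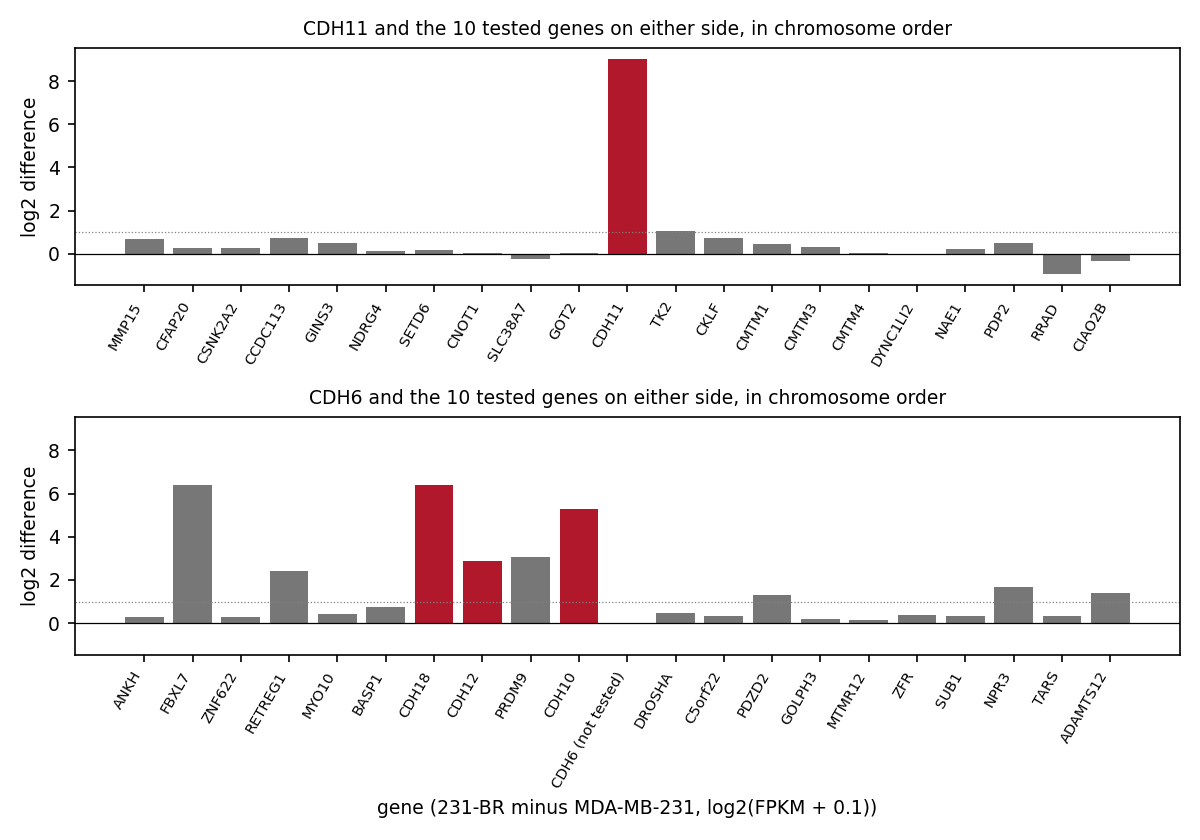
Difference of log2(FPKM + 0.1), 231-BR minus MDA-MB-231, for CDH11 (top) and CDH6 (bottom) and the 10 tested genes on either side in chromosome order. Cadherins are red, other genes grey, and the dotted line marks 1. TK2 is the only tested neighbour of CDH11 above 1, and CDH8, in the same stretch, was under the filter and is not shown. CDH18, CDH12 and CDH10 stand near other genes that were higher in 231-BR. Of the genes shown, CDH18, CDH10, PRDM9 and FBXL7 passed the filter only through their 231-BR values and could only come out higher. CDH6 was under the filter and has no bar.

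CDH11 and CDH5 also mark fibroblasts and endothelial cells, so markers of these cells were read in the same libraries. The summed FPKM of 9 fibroblast markers was 2.81 to 3.61 in 231-BR and 1.22 to 1.43 in MDA-MB-231 libraries. Of the 9, COL1A2, COL3A1, LUM, THY1 and FAP did not exceed 0.02 FPKM in any library, while CDH11 was at 55.46 FPKM or more in 231-BR cells. The sum in 231-BR cells was mostly ACTA2, at 2.35 ± 0.366 against 0.350 ± 0.0781 FPKM. PDGFRA was at 0.24 to 0.26 FPKM in 231-BR and listed at 0 in all MDA-MB-231 libraries, COL1A1 was lower, at 0.50 to 0.55 against 0.88 to 0.98 FPKM, and PDGFRB did not exceed 0.06 FPKM. The summed FPKM of 7 endothelial markers was 38.5 to 39.6 in 231-BR and 6.24 to 7.03 in MDA-MB-231 libraries. Most of it came from TIE1, at 37.1 ± 0.745 against 5.85 ± 0.289 FPKM. KDR was also higher, at 1.39 to 1.64 against 0.46 to 0.63 FPKM, as was PECAM1, at 0.37 to 0.48 against 0.15 to 0.21 FPKM. The other 4 endothelial markers, TEK, VWF, CLDN5 and ERG, did not exceed 0.1 FPKM, and CDH5 did not exceed 0.03 FPKM. Whether the fibroblast and endothelial markers bear on the cadherin differences was not tested.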

How the data were processed

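Poly(A) RNA of 3 libraries of 231-BR and 3 of MDA-MB-231 cells was read in pairs on a BGISEQ-500 instrument. The authors filtered the reads and deposited FPKM per gene with 2 decimals; the submitters' processing notes name HISAT2 2.0.4, Bowtie2 2.2.5 and GRCh38.p12, and the program that computed the FPKM is not given in the sources used here. Without counts, depth per library is unknown and no count test was run. FPKM shares out fragments within a library, so abundant genes affect the values of others, and values near 0 rest on few fragments.

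The members and gene lists were chosen with earlier results of these data known. The 13465 genes that averaged 0.1 FPKM or more were fitted as log2(FPKM + 0.1) by limma 3.58.1 (lmFit and eBayes with a trend, in R 4.3.3), with cell line as the only term. Benjamini-Hochberg adjustment covered all 13465, and genes with an adjusted p under 0.05 and an absolute log2 difference over 1 were called. The fit was tested on simulated data. Named genes were all members, called genes of the 5 lists with a mean of at least 1 FPKM in either line, CTNNB1, JUP, and the 5 genes nearest to CDH11. Gene positions and codons came from GENCODE release 29 (GRCh38), which placed 13187 of the 13465 tested genes. Python 3.11.15 with pandas 2.3.3 was used for tables, and matplotlib 3.10.9 for figures.

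Alternatives were pseudocounts of 1 and 0.01, no filter, a filter at a mean of 1 FPKM, median-of-ratios scaling, quantile normalization, no trend, a log2 threshold of 1.5, a replicate block and each library left out. The genes CDH7, CDH9, CDH19, CDH22, TWIST1, TWIST2 and DCN, 4 non-classical cadherins of the lists and amino acid sequences were not analysed here.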

Additional observations from a re-analysis of the deposited data

How the results depend on the processing

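Of the 5 lists, 10 genes were called higher and 2 lower. The count higher was 6 with a pseudocount of 1 and 6 with a filter at a mean of 1 FPKM, under which CDH12, FAT3, CTNNA2 and CTNND2 were not tested, and 8 to 11 in the other settings other than leaving out a library, where it was 9 to 10. The count lower was 2 in all 15 settings. With a pseudocount of 1, FAT3, CTNNA2, CTNND2, ZEB2 and the member CDH13 no longer passed the fold criterion, and CDH13 also missed it without 231-BR replicate 1 (-0.95). FAT3 (0.97) and ZEB2 (0.68) also missed it after quantile normalization, and ZEB2 (0.95) after median-of-ratios scaling. The log2 ratio of the summed classical cadherins was 1.63, 1.54 after median-of-ratios scaling, 0.50 without CDH11, and 1.61 to 1.66 with each library left out. Over all settings the log2 difference of CDH11 ranged from 5.83 to 11.79, that of CDH13 from -1.61 to -0.42, that of CTNND1 from 0.50 to 0.60 and that of CTNNA1 from -0.33 to -0.17, whereas CDH2 (-0.38 to 0.10) and CDH4 (-0.04 to 0.08) took both signs. No called value changed sign.

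The replicate block gave 10 genes higher and 2 lower, and the 12 genes were the same as without it. Deviations of same-numbered libraries from their line's mean correlated at 0.0873, -0.0396 and -0.106 across the 11124 genes with a mean of at least 1 FPKM. Those of libraries with other numbers correlated at -0.154 to 0.183, so the numbers were not taken to pair the libraries. Depth is unknown, and 3 libraries per line limit the precision: the smallest exact two-sided permutation p for a single value is 0.1.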
